A study of Homo sapiens with 6 samples.

Results

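The genes described here are 10 imprinted genes among the 61806 genes of the deposited table: PEG10, SGCE, PEG3, MEST, PLAGL1, IGF2, H19, GRB10, PHLDA2 and CDKN1C. They were chosen by name, as PEG10 and well-known imprinted genes, with the fold changes of UVB + sauchinone against UVB already known. Their values in the comparison are therefore a description, given without p-values. Where one of them is said to pass the threshold or not, that too is a description and not a test of the gene. Of the 10 genes, 7 had enough counts to be tested with the other genes, and PEG3, CDKN1C and H19 did not. RNA was sequenced from HFF cells, a cell bank culture of wild type human foreskin fibroblasts, in 3 libraries of a UVB group and 3 of a UVB + sauchinone group, all in 1 labelled batch. Both groups received 40 mJ per cm2 of UVB, the short-wave band of sunlight that reaches the skin, and were then cultured for 48 h. The UVB group was kept in vehicle and the other group in 10 µM sauchinone, a plant lignan. No unirradiated cells were analysed here, the protocols also describe a version with the compound added before irradiation without saying which was used, and they do not say that libraries came from separate cultures, so the spread between libraries may be technical.

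Imprinted genes are expressed mainly from the copy inherited from 1 parent, because a methylation mark set in the egg or the sperm silences the other copy or its regulator. Many act on growth before birth: paternally expressed genes such as IGF2 tend to promote growth, and maternally expressed genes such as CDKN1C, PHLDA2 and H19 tend to restrain it. They lie in clusters under shared control regions, so neighbours are often read together. The counts hold no allele information, so the parental copy behind each RNA was not measured. In bulk RNA, a lower level in every cell and fewer cells that express the gene cannot be told apart.

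Total counts ran from 20984851 to 23076388 per library, and 3 counts corresponded to 0.130 to 0.143 CPM (counts scaled to a common library size, with TMM factors), a floor for counting error only. With sauchinone, 7786 of 15704 genes tested changed at an adjusted p under 0.05 (49.6%; quasi-likelihood test of edgeR, Benjamini-Hochberg adjusted), 3872 upward and 3914 downward. The median log2 fold change of all tested genes was 0.01, and its median standard error 0.12. All 8 fibroblast markers were present, and their summed level was 17149 to 18925 CPM with UVB and 12640 to 12854 CPM with sauchinone. Keratinocyte markers summed to at most 31.0 CPM in any library with KRT5, KRT1 and DSG3 at 0, endothelial markers to at most 7.98 CPM with CDH5 and KDR at 0, melanocyte markers to at most 2.54 CPM with DCT at 0, and immune markers to at most 2.12 CPM with CD3E at 0. Pericyte and smooth muscle markers summed to 356 to 359 CPM with UVB and 172 to 188 CPM with sauchinone, and 12 mitosis genes to 488 to 594 and 245 to 297 CPM. The part of these shifts in the levels below was not tested.

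Among the 7 tested imprinted genes, 5 passed the threshold, against 49.6% of all genes tested. PEG10, PHLDA2 and PLAGL1 were higher with sauchinone (background 24.7%), SGCE and MEST were lower (background 24.9%), and GRB10 and IGF2 did not pass. The 5 that passed had no overlap in CPM between the groups, as had 57.1% of all genes tested. Since this comparison chose the genes, nothing is read from these shares.

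**Figure D1:**
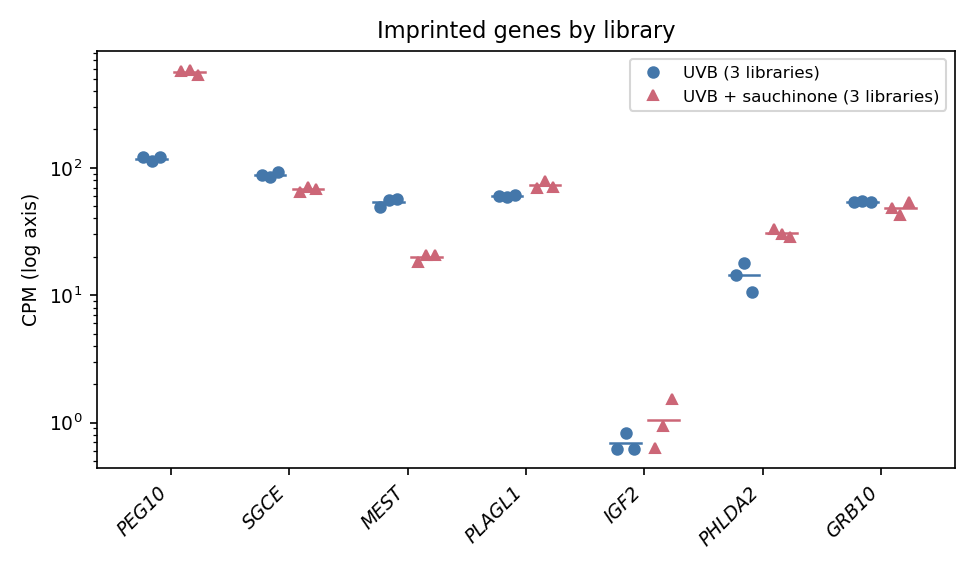
Level of the 7 tested imprinted genes in each library, in CPM on a log axis; circles are the 3 UVB libraries, triangles the 3 UVB + sauchinone libraries and lines the group means. PEG10 lies between 113 and 121 CPM with UVB and between 534 and 588 CPM with sauchinone, while the groups of GRB10 and of IGF2 overlap.

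PEG10 encodes a protein derived from the Gag and Pol genes of an ancient retrotransposon, is expressed from the paternal copy and is needed for the placenta to form. As in a retrovirus, its longer protein is made when ribosomes slip back by 1 base at a slippery heptamer. That site is shown because a gene count cannot tell which of the 2 proteins was made from the RNA that rose. The following 127 bases of GENCODE release 29 (GRCh38, chr7:94664450-94664576, plus strand) lie in exon 2 of 2 of the longest annotated PEG10 transcript, and capitals mark the heptamer at chr7:94664510-94664516 and the stop codon of the unshifted frame.

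PEG10: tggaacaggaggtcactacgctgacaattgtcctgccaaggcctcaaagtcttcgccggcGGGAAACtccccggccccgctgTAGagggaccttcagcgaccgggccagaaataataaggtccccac

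Read without a shift, the coding sequence of that transcript holds 325 codons before the stop. Read with a shift back by 1 base at the heptamer, it holds 708 codons. The heptamer occurs in 6 of the 9 PEG10 transcripts of that release.

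PEG10 (ENSG00000242265; chr7:94656325-94669695, plus strand, GRCh38) measured 121, 113 and 121 CPM in the 3 UVB libraries and 574, 588 and 534 CPM in the 3 UVB + sauchinone libraries. The groups were far apart and each was tight, with means of 118 ± 4.92 and 565 ± 28.3 CPM (SD, n = 3). The log2 fold change was 2.26 ± 0.073 (SE), a 4.78-fold higher level with sauchinone. Ranked among the 9049 genes that averaged 10 CPM or more, this was the rise of rank 8. Per kilobase of exon, PEG10 moved from rank 2344 of all 15704 genes tested with UVB to rank 374 with sauchinone. Its share of all counts was 0.0110% to 0.0120% in the UVB libraries and 0.0544% to 0.0591% in the others.

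SGCE encodes epsilon-sarcoglycan, a membrane protein whose paternal loss causes myoclonus-dystonia. It starts head to head with PEG10 on the other strand, under the same imprinting control region, and the 2 spans overlap by 248 bases. SGCE (ENSG00000127990; chr7:94524204-94656572, minus strand) measured 87.1, 84.7 and 92.2 CPM with UVB and 64.8, 71.2 and 67.6 CPM with sauchinone. Its direction was thus opposite to that of PEG10 in every library, with means of 88.0 ± 3.86 and 67.9 ± 3.23 CPM (SD, n = 3). The log2 fold change was −0.37 ± 0.081 (SE), 1.30-fold lower with sauchinone.

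The difference of SGCE went with gene size. Over all tested genes, the median log2 fold change was −0.48 for the 2773 genes that span over 100 kb and 0.20 for the 4093 under 10 kb, and SGCE spans 132 kb. With a loess trend on genomic span taken out of the counts, its log2 fold change was −0.03, and with the trend of exonic size removed it was 0.01, neither of which passed. PEG10, which spans 13.4 kb, stood at 2.08 and 2.27 under the same corrections. The ratio of PEG10 to SGCE counts was 1.39, 1.33 and 1.31 with UVB and 8.85, 8.26 and 7.89 with sauchinone, with means of 1.34 ± 0.042 and 8.33 ± 0.485 (SD, n = 3). Whether the counting used strand is not given in the sources used here, so reads from the 248 shared bases may be assigned to either gene. A larger overlap, of 32816 bases, joins SGCE to CASD1, an enzyme gene on the plus strand.

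**Figure D2:**
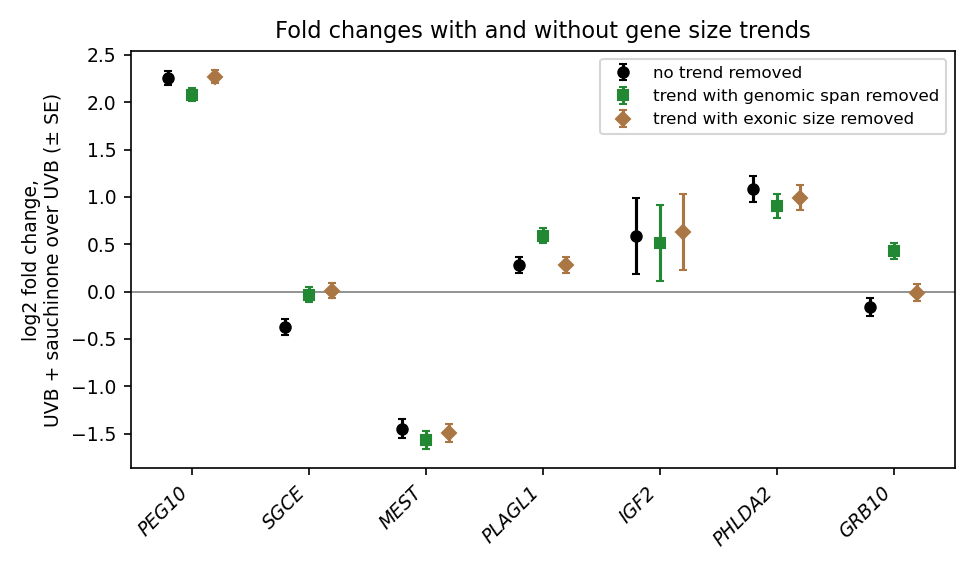
Log2 fold change of UVB + sauchinone over UVB (± SE, 3 libraries a group) for the 7 tested imprinted genes, with no trend removed, with the trend of genomic span removed and with that of exonic size removed. PEG10, MEST and PHLDA2 keep their place under all 3, SGCE comes to within 0.04 of 0 under both corrections, and GRB10 moves from −0.17 to 0.43 with span.

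MEST encodes a hydrolase-like protein of the endoplasmic reticulum, is expressed from the paternal copy and marks growing mesoderm and fat tissue. It measured 49.4, 56.3 and 56.9 CPM with UVB and 18.2, 20.6 and 20.8 CPM with sauchinone (ENSG00000106484; chr7:130486171-130506465, plus strand). The highest sauchinone library lay well below the lowest UVB library, and the means were 54.2 ± 4.17 and 19.9 ± 1.46 CPM (SD, n = 3). The log2 fold change was −1.45 ± 0.098 (SE), 2.73-fold lower with sauchinone and of rank 171 among the falls of the 9049 genes with at least 10 CPM. With either size trend removed it was −1.57 (span) or −1.49 (exonic size).

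PLAGL1 encodes a zinc finger transcription factor that restrains the cell cycle and regulates other imprinted genes, and its gain of dose causes transient neonatal diabetes. It measured 60.3, 58.6 and 61.3 CPM with UVB and 69.8, 78.3 and 71.0 CPM with sauchinone (ENSG00000118495; chr6:143940300-144064599, minus strand). The groups did not overlap, but the distance was small: means of 60.1 ± 1.32 and 73.0 ± 4.61 CPM (SD, n = 3) and a log2 fold change of 0.28 ± 0.083 (SE), 1.22-fold higher. Without UVB + sauchinone replicate 2, the highest library, it was 0.23 and no longer passed, and with the span trend removed it was 0.59.

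IGF2, the fetal growth factor that signals through the IGF1 receptor, was near the limit of detection. Its counts were 13, 18 and 14 with UVB and 14, 22 and 36 with sauchinone (ENSG00000167244; chr11:2129112-2158391, minus strand). The groups overlapped, and the log2 fold change of 0.59 ± 0.40 (SE) did not pass. PEG3, which encodes a large zinc finger protein with roles in maternal behaviour and cell death, had counts of 18, 4 and 9 with UVB and 7, 7 and 13 with sauchinone (ENSG00000198300; chr19:56810077-56840728, minus strand). These were too few to be tested, so no direction is given for PEG3.

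PHLDA2, expressed from the maternal copy, encodes a small pleckstrin-homology protein that limits placental growth. It measured 14.5, 18.0 and 10.7 CPM with UVB and 32.8, 30.3 and 28.5 CPM with sauchinone (ENSG00000181649; chr11:2928273-2929420, minus strand). All 3 sauchinone libraries lay above all 3 UVB libraries. The UVB libraries spread widely, with a coefficient of variation of 25.6% against a median of 10.9% over all tested genes. The means were 14.4 ± 3.69 and 30.5 ± 2.19 CPM (SD, n = 3), and the log2 fold change was 1.08 ± 0.14 (SE), 2.12-fold higher with sauchinone.

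CDKN1C, the imprinted inhibitor of cyclin-dependent kinases of the same domain, had counts of 1, 2 and 1 with UVB and 5, 3 and 6 with sauchinone (ENSG00000129757; chr11:2883213-2885775, minus strand). H19, the long noncoding RNA transcribed beside IGF2, had counts of 2, 0 and 0 and of 1, 0 and 0 (ENSG00000130600; chr11:1995166-2001470, minus strand). Neither was tested, and H19 stayed under the floor of 3 counts in every library, so no fold is given. From H19 to PHLDA2, these 4 genes of chromosome 11 lie within 934 kb, and PHLDA2 was the only 1 of them above 2 CPM in any library.

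GRB10 encodes an adaptor that binds the insulin and IGF1 receptors and damps their signal, and the expressed parental copy depends on the tissue and transcript. It measured 53.5, 54.9 and 54.1 CPM with UVB and 48.5, 42.5 and 53.9 CPM with sauchinone (ENSG00000106070; chr7:50590063-50793462, minus strand). The groups overlapped, with means of 54.2 ± 0.656 and 48.3 ± 5.69 CPM (SD, n = 3) and a log2 fold change of −0.17 ± 0.093 (SE). GRB10 spans 203 kb. With the span trend removed its log2 fold change was 0.43 and passed, and with that of exonic size removed it was −0.01, so no direction can be given for it.

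Levels of different genes were compared per kilobase of exon. With UVB the order of mean levels was PEG10 at 17.7, PHLDA2 at 15.7, MEST at 11.4, PLAGL1 at 9.37, GRB10 at 5.53, SGCE at 4.21 and IGF2 at 0.097 CPM per kilobase, followed by PEG3, CDKN1C and H19. The ranges of PEG10 and PHLDA2 overlapped, as did those of PHLDA2 and MEST and of neighbours among the 4 lowest genes. With sauchinone PEG10 stood alone at 84.5 CPM per kilobase, above PHLDA2 at 33.2 and PLAGL1 at 11.4. GRB10 at 4.93 and MEST at 4.17 overlapped, and SGCE at 3.25 and IGF2 at 0.146 followed. The low place of SGCE rests in part on its exonic size of 20876 bases, which joins the exons of all its transcripts.

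By the likeness of log2 CPM over the 6 libraries, the genes most like PEG10 were NPC1, SMG8 and TBX3, each with a Pearson r of 0.999. NPC1 exports cholesterol from lysosomes, SMG8 acts in nonsense-mediated decay, and TBX3 is a T-box transcription factor. The 6 libraries share the 2 groups, and 150 of the 9048 other genes at 10 CPM or more had an r above 0.99, so the measure mainly reads a tight difference between the groups. The log2 fold changes of these 3 genes were 0.79, 1.09 and 0.48, all smaller than that of PEG10.

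Many imprints lie at start sites rich in CpG, and the zinc finger protein ZFP57 binds the methylated motif TGCCGC in many of them. RefSeq promoter windows (GRCh38.p14, 250 bases before to 50 after a start) matched GRB10, H19, MEST and PLAGL1, 4 of the 10 genes. For MEST and PLAGL1 the window with the most motifs is printed, to show how the motif sits beside a start. Capitals mark TGCCGC on either strand (GCGGCA on the other), and adjoining matches can overlap.

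MEST: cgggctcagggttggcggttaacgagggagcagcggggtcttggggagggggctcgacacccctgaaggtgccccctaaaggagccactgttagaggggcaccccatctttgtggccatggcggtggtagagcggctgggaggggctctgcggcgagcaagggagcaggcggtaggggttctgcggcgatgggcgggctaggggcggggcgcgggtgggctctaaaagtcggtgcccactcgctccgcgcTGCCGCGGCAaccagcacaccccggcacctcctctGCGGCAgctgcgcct
PLAGL1: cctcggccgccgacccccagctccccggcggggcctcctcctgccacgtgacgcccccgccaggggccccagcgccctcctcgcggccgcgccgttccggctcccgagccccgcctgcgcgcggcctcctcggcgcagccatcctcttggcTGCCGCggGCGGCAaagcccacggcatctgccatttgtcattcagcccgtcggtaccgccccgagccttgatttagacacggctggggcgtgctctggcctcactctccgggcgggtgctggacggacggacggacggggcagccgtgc

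The MEST window (chr7:130491835-130492134, plus strand) holds 3 matches, of which 2 overlap, and 25 CpG. The PLAGL1 window (chr6:144008210-144008509, minus strand) holds 2 matches and 39 CpG, and the other PLAGL1 windows hold no match. Of the 5 windows of GRB10, the only 1 with a match (chr7:50793404-50793703, minus strand) holds 1 match and 44 CpG. Windows were picked by their motifs, so they need not be the start that carries a gene's imprint. Of all 35116 windows of this length, 5878 hold the motif (16.7%), and the median window has 14 CpG. The H19 window (chr11:2001217-2001516, minus strand) holds 0 matches and 6 CpG. A match in a window chosen for its matches is a description of the letters and not a bound site, and methylation was not measured.

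The genes beside the imprinted genes were taken by position alone, as those tested within 500 kb. Of 69 such neighbours, 29 changed (42.0%, background 49.6%), 17 upward and 12 downward, with a median log2 fold change of 0.03. Without UVB + sauchinone replicate 2, 11 rose in place of 17. Neighbours of MEST that changed were all lower: CEP41, CPA4, COPG2 and COPG2IT1, 4 of 10 tested (40%). COPG2, which encodes a coat subunit of transport vesicles, overlaps the end of MEST by 228 bases on the other strand. It measured 25.3, 24.4 and 25.1 CPM with UVB and 10.8, 7.08 and 10.2 CPM with sauchinone. Its fall was of nearly the size of that of MEST, with a log2 fold change of −1.41 ± 0.13 (SE; adjusted p = 1.1e-08, edgeR) and of −0.96 with the span trend removed. COPG2IT1, a noncoding RNA inside COPG2 on the strand of MEST, had counts of 11, 14 and 18 with UVB and 0, 3 and 0 with sauchinone. Scaled for the total counts of the groups, the summed counts of 43 and 3 give a ratio of 14.7. Its exact 95% binomial interval is 4.69 to 73.9, which covers counting error only. CEP41, a gene of the cilium, fell by 0.62 and CPA4, a carboxypeptidase gene of the imprinted domain, by 0.30 on the log2 scale. As strand use is not given, reads that COPG2 shares with MEST or with COPG2IT1 cannot be told apart. MEST and COPG2IT1 lie 32.5 kb apart and do not overlap.

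**Figure D3:**
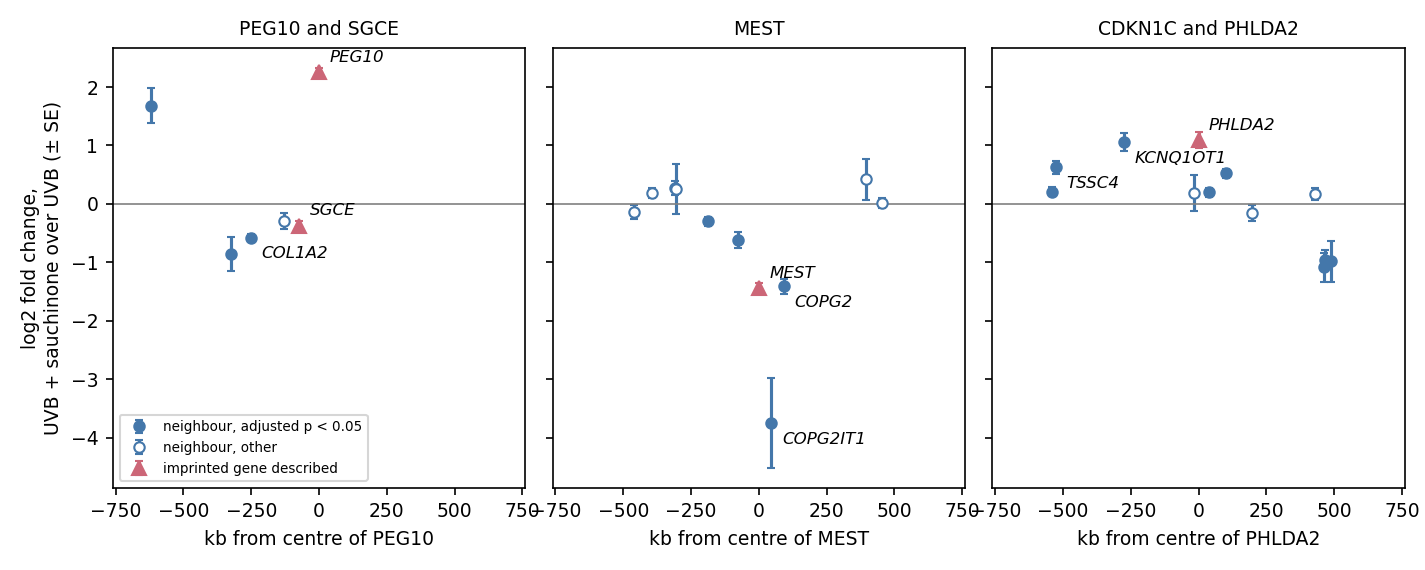
Log2 fold change (± SE, 3 libraries a group) of imprinted genes (triangles) and of tested neighbours within 500 kb (circles, filled where the adjusted p is under 0.05), by distance in kilobases from the centre of PEG10, MEST or PHLDA2. PEG10 at 2.26 stands above SGCE at −0.37 and COL1A2 at −0.58, while COPG2 at −1.41 lies beside MEST at −1.45.

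Beside PEG10 and SGCE, 4 genes were tested. COL1A2, a type I collagen chain and one of the fibroblast markers, fell from 6991 ± 281 to 4682 ± 89.7 CPM (SD, n = 3), a log2 fold change of −0.58 ± 0.059 (SE; adjusted p = 3.6e-08, edgeR). CASD1, at −0.29 ± 0.13 (SE), did not pass. The unnamed genes ENSG00000285090 and ENSG00000236453, both under 3 CPM on average, stood at −0.86 and 1.68, and the fall of the former did not hold with DESeq2, with the span trend removed, or without UVB replicate 2 or UVB + sauchinone replicate 2. Among the 4 genes of this stretch above 3 CPM, PEG10, SGCE, CASD1 and COL1A2, PEG10 alone was higher with sauchinone.

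Around PHLDA2 and CDKN1C, 8 of 11 tested neighbours changed (72.7%, background 49.6%), 5 upward and 3 downward. KCNQ1OT1, the long noncoding RNA of the paternal copy that silences this domain, had counts of 211, 214 and 284 with UVB and 509, 657 and 387 with sauchinone. All sauchinone libraries were above all UVB libraries, with a log2 fold change of 1.06 ± 0.15 (SE; adjusted p = 5.9e-06, edgeR), or 1.93 with the exonic size trend removed. CARS1, the cysteinyl-tRNA synthetase, rose by 0.52 and TSSC4, a splicing factor, by 0.62 on the log2 scale, and both held with the size trends removed. NAP1L4, a histone chaperone, at 0.19 and the tetraspanin CD81 at 0.21 passed narrowly: NAP1L4 lost its call in 7 of 15 alternatives and CD81 in 6. TSSC2, OR7E12P and FAM86GP, at the far edge of the window, were lower at −0.96, −1.09 and −0.99, the last not with DESeq2 or without UVB replicate 1 or UVB + sauchinone replicate 2 or 3. SLC22A18, a maternally expressed transporter gene next to PHLDA2, stood at 0.19 ± 0.31 (SE) and did not pass.

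Around IGF2 and H19, 4 of 10 tested neighbours passed (40%, background 49.6%), all higher; KCNQ1OT1, TSSC4 and CD81 are counted in both chromosome 11 windows. The nearest tested gene, MRPL23 of the mitochondrial ribosome, stood at 0.04 ± 0.15 (SE), and RPL26P30, a ribosomal protein pseudogene on the other side, at 0.31 ± 0.46 (SE). Near PEG3, 8 of 24 tested neighbours passed (33.3%, below the background of 49.6%), all higher, among them the zinc finger gene ZNF264 at 0.44 and the meiotic kinase gene AURKC at 0.87. The nearest on the other side of PEG3, SMIM17, was lower at −1.15 ± 0.48 (SE) and did not pass. Around PLAGL1, 2 of 11 rose and 3 fell (45.5% changed, background 49.6%). Of its nearest neighbours, SF3B5, a splicing factor subunit gene, rose by 0.34 but did not pass with the span trend removed, and LTV1, a ribosome assembly gene, stood at −0.04 ± 0.11 (SE). The largest of these was UTRN, the dystrophin relative utrophin, which fell from 173 ± 17.9 to 35.9 ± 3.23 CPM (SD, n = 3) with a log2 fold change of −2.27 ± 0.094 (SE; adjusted p = 2.9e-14, edgeR), or −1.09 with the span trend removed. PHACTR2, a phosphatase regulator gene, was at −0.57, but at 0.25 with the span trend removed. FIGNL1, the nearest tested gene to GRB10, stood at −0.06 ± 0.12 (SE).

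A wider list of 53 other imprinted genes held 51 in the table, of which 31 were tested and 8 were at 0 in all libraries. Of the 31, 8 rose, 6 fell and 17 did not pass, or 45.2% changed against 49.6% of all genes tested, with a median log2 fold change of 0.07 against 0.01. The split depended on gene size: with the span trend removed 13 rose and 2 fell, and with the exonic size trend removed 14 rose and 3 fell. Of 14 tested genes listed as paternally expressed, 4 rose and 1 fell (35.7% changed). Of 15 listed as maternally expressed, 3 rose and 5 fell (53.3%). The backgrounds are 24.7% upward and 24.9% downward. The median span was 31.3 kb in the paternal and 74.6 kb in the maternal class. With the span trend removed, the paternal fall, SNHG14, was at 0.33. Of the maternal falls, RB1 was then at 0.22 and IGF2R and MEG3 did not pass, while ATP10A and CPA4 stayed lower. The difference between these parental classes was not tested.

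**Figure D4:**
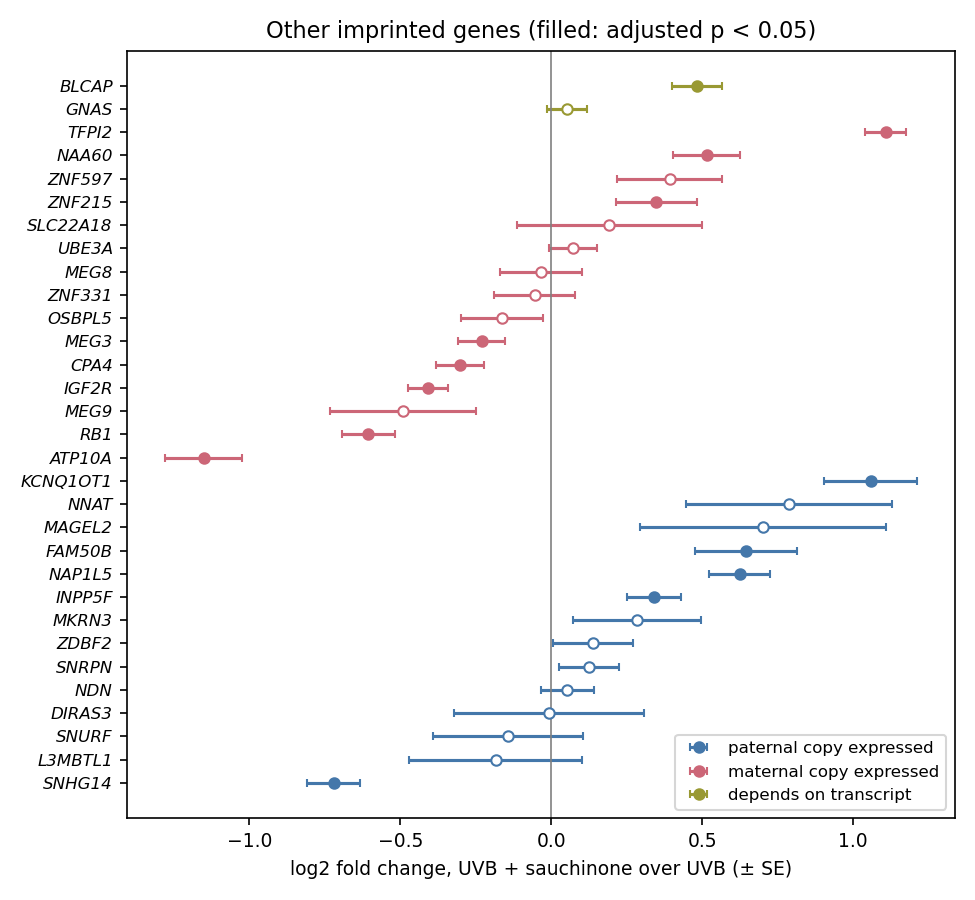
Log2 fold change (± SE, 3 libraries a group) of the 31 other imprinted genes tested, by the parental copy listed as expressed. The expressed copy was not measured in these cells. Filled points have an adjusted p under 0.05. Both parental classes spread to either side of 0, from ATP10A at −1.15 to TFPI2 at 1.11.

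TFPI2, a protease inhibitor of the extracellular matrix and the imprinted gene upstream in the PEG10 domain, measured 373, 409 and 410 CPM with UVB and 889, 843 and 837 CPM with sauchinone. It rose by a log2 fold change of 1.11 ± 0.068 (SE; adjusted p = 1.1e-11, edgeR), and by 0.88 with the span trend removed. TFPI2 and PEG10 are thus both higher while SGCE between them is not, although TFPI2 is known as a maternally and PEG10 as a paternally expressed gene. TFPI2 lies more than 500 kb from PEG10 and is not among the neighbours above. NAP1L5, a nucleosome assembly protein-like gene, rose by 0.62 ± 0.10 (SE; adjusted p = 2.1e-05, edgeR).

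Among the falls, ATP10A, a lipid flippase gene, measured 57.4, 60.8 and 43.3 CPM with UVB and 25.3, 19.3 and 28.1 CPM with sauchinone. Its log2 fold change was −1.15 ± 0.13 (SE, adjusted p = 1.3e-07, edgeR). With the span trend removed it was −0.61, and with that of exonic size removed −0.78. SNHG14, the long host transcript of the Prader-Willi region, was at −0.72 and the tumour suppressor RB1 at −0.61, but with the span trend removed they were at 0.33 and 0.22. IGF2R, which removes IGF2 from the cell surface, was at −0.41 and at −0.02 with span removed, and MEG3, a maternally expressed noncoding RNA, at −0.23, which was 0.18 with the exonic size trend removed and did not pass with span removed or without UVB + sauchinone replicate 3. SNRPN and NDN of the Prader-Willi region stood at 0.13 ± 0.099 and 0.05 ± 0.088 (SE) and did not pass. DLK1, the paternally expressed gene of the MEG3 domain, had 1 count in all libraries together.

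In the IGF pathway around IGF2 and GRB10, of 19 tested genes 2 rose, 9 fell and 8 did not pass, with a median log2 fold change of −0.23, and with either size trend removed 4 rose and 9 fell. In all 57.9% changed, against 49.6% of all genes tested, and the background for falls is 24.9%. The falls included 3 of 3 receptors and 3 of 5 tested binding proteins, groups too small to read against that background. IGFBP5, a secreted IGF-binding protein, measured 2249, 2337 and 2189 CPM with UVB and 397, 416 and 485 CPM with sauchinone, a fall of 5.22-fold (log2 −2.38 ± 0.076 SE; adjusted p = 9.2e-16, edgeR). PAPPA, the protease that frees IGF from binding proteins, was at −1.65 ± 0.100 (SE), or −0.93 with the span trend removed, and its inhibitor STC1 at 1.92 ± 0.12 (SE). The receptors INSR, IGF1R and IGF2R were at −1.45, −0.37 and −0.41, of which, with the span trend removed, INSR was at −0.92, IGF1R turned to 0.49 and IGF2R no longer passed. IGF2BP2 and IGF2BP3, which bind IGF2 and other messages, were at −0.80 and −0.83, or −0.27 and −0.38 with span removed, and the adaptor SHC1 rose by 0.43. The other ligand, IGF1, had 1 count in all libraries together.

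Genes for proteins that keep or read imprints changed in both directions. Of 20 tested, 5 rose, 4 fell and 11 did not pass, with a median of 0.08; 45% changed, which is near the 49.6% of all genes tested. Without UVB replicate 3, 8 rose, and with the span trend removed 8 rose and 2 fell, and with that of exonic size 9 rose and 2 fell. TRIM28, the corepressor that ZFP57 recruits, rose from 107 ± 13.4 to 214 ± 10.7 CPM (SD, n = 3; log2 1.00 ± 0.086 SE, adjusted p = 2.6e-09, edgeR). TET1, which oxidises methylated cytosine, was 2.83-fold lower, from a mean of 5.09 to 1.79 CPM, while TET3 of the same family rose by 0.66 ± 0.13 (SE) on the log2 scale. CTCF, the insulator protein of the H19 control region, rose by 0.40 and the histone methyltransferase EZH2 by 0.52, and ARID4A, a chromatin protein of the Prader-Willi imprint, fell by 0.67. ZFP57, DNMT3L and DPPA3, which act in germ cells and the early embryo, were at 0 in all libraries.

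PEG10 belongs to genes taken from retrotransposon Gag, and most other such genes tested were also higher before size trends were removed. Of 23 listed besides PEG10, 15 were tested, of which 11 passed, all higher, and 4 did not pass, with a median log2 fold change of 0.43; 73.3% changed, all upward, against a background of 24.7% upward. These are short genes with a median span of 3.43 kb, and all tested genes under 10 kb had a median log2 fold change of 0.20. With the span trend removed 8 rose and 3 fell, while with exonic size removed 8 passed, all higher. RTL8A, RTL8C and RTL10 no longer passed with the span trend removed. The part of gene size in the share that rose was not tested. Without UVB replicate 3, 1 Gag-derived gene fell. RTL5 measured 17.4, 16.7 and 16.2 CPM with UVB and 48.9, 56.6 and 47.3 CPM with sauchinone, a rise of 3.04-fold (log2 1.60 ± 0.10 SE; adjusted p = 1.4e-11, edgeR). ARC, whose protein forms capsids that carry RNA between neurons, rose from counts of 9, 9 and 5 to 204, 215 and 123 (log2 4.46 ± 0.31 SE; adjusted p = 6.8e-11, edgeR). PNMA1, PNMA8A, MOAP1 and RTL6 rose by 1.11, 0.80, 0.60 and 0.43, all with either size trend removed as well. The rise of RTL8A did not pass in 11 of 15 alternatives and that of LDOC1 in 10, and reads of RTL8A, RTL8B and RTL8C, which are near-identical, are uncertain. At 2.26, PEG10 exceeded all of these but ARC.

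**Figure D5:**
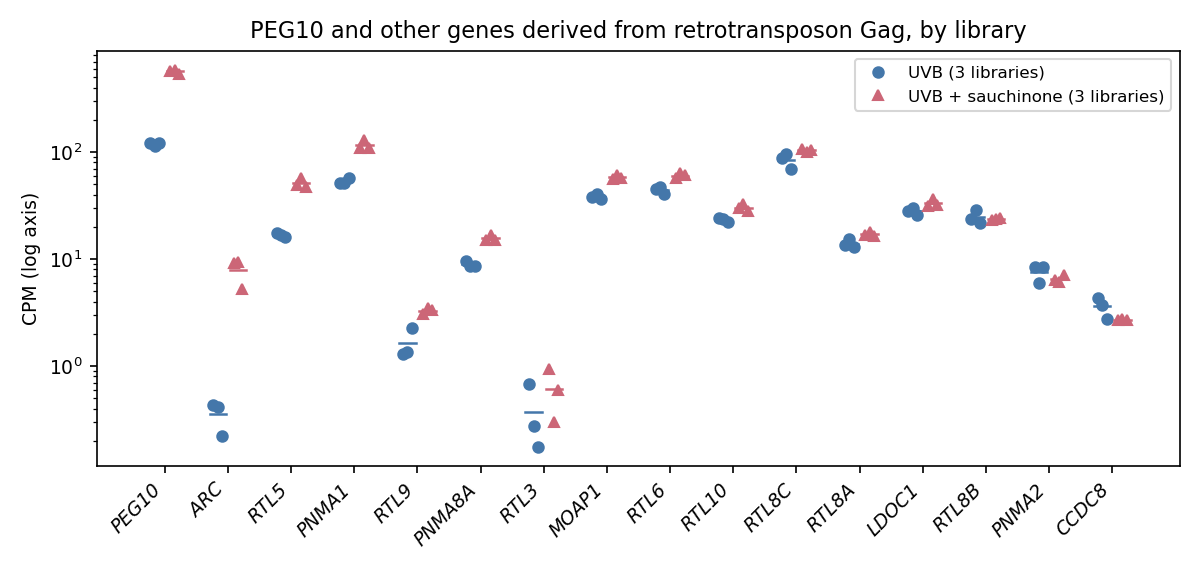
Level of PEG10 and of the 15 other tested Gag-derived genes in each library, in CPM on a log axis; circles are the 3 UVB and triangles the 3 UVB + sauchinone libraries, and lines are group means. RTL5 goes from 16.8 to 50.9 CPM on average, ARC from 0.356 to 7.92 CPM, and PNMA2 and CCDC8 at the right did not pass.

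Partners of SGCE and relatives of CDKN1C went in both directions, with 4 of 13 tested genes up, 4 down and 5 not passing (61.5% changed, background 49.6%). In the sarcoglycan complex, which ties the cell surface to the matrix, SSPN (sarcospan) fell by 1.06 ± 0.11 (SE) and SGCD was at −0.53 ± 0.15 (SE). With the span trend removed, SSPN was at −0.54 and SGCD at 0.88. SGCB at −0.16 ± 0.073 (SE) did not pass. CDKN1A, the p53-induced kinase inhibitor related to CDKN1C, rose by 0.60 ± 0.072 (SE) from a mean of 924 to 1404 CPM, while CDKN1C itself was at most 0.257 CPM in any library. Of the cyclins these inhibitors bind, CCNE1 rose by 0.89 and CCND3 by 0.60, and CCNA2 fell by 1.29 and CCND1 by 0.43, next to the lower mitosis genes given above.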

How the data were processed

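RNA of 6 libraries was measured. The authors deposited raw counts per gene, exonic sizes, coordinates and FPKM values, and the submitters' processing notes name GRCh38. The sources used here do not give the aligner, the annotation or the use of strand. Deposited FPKM equalled the scaled counts in 100% of values (within 0.006) and served only as an alternative for levels. The labels' protocols name poly(A) selection or ribosomal RNA removal without saying which, and dUTP libraries.

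The test was that of edgeR 4.0.16 (R 4.3.3) on counts: filterByExpr, TMM, quasi-likelihood test without covariates, two-sided, Benjamini-Hochberg over 15704 genes, threshold 0.05. Size trends were removed by per-library loess offsets (span 0.3) of log2 CPM (prior count 2) on genomic span or exonic size. Other alternatives were DESeq2 1.42.0, limma-voom (limma 3.58.1), other normalizations and filters, a replicate block, other windows and each library left out. The genes and lists were chosen with earlier results of these data known. Named list genes were up to 6 per list with the smallest p at a mean of at least 1 CPM, neighbours the nearest on each side and the 6 with the smallest p; others were named after their values were seen.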

Additional observations from a re-analysis of the deposited data

How the results depend on the processing

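Of the values given for the imprinted genes, SGCE reversed, at 0.0069 with the exonic size trend removed, and was −0.032 with the span trend removed. Removing the span trend also moved PEG10 to 2.08, MEST to −1.57, PLAGL1 to 0.59 and GRB10 to 0.43, and removing that of exonic size moved GRB10 to −0.010; these values moved with gene size, as the trends were built to show, and the cause of the trends was not tested. Leaving out 1 library at a time gave 2.22 to 2.30 for PEG10, −0.41 to −0.34 for SGCE, −1.51 to −1.39 for MEST, 0.23 to 0.32 for PLAGL1, 0.90 to 1.28 for PHLDA2, 0.20 to 0.85 for IGF2 and −0.25 to −0.08 for GRB10. PLAGL1 did not pass without UVB + sauchinone replicate 2. Neighbours that changed numbered 16 within 250 kb and 58 within 1000 kb, as the construction of the windows gives. With deposited FPKM, GRB10 with UVB was 5.44 per kilobase. The other totals of changed genes stayed within 1.5 times under every alternative run, but counts in 1 direction moved further: with either size trend removed, as given above, for higher imprint maintenance genes from 5 to 8 without UVB replicate 3, for higher neighbours from 17 to 11 without UVB + sauchinone replicate 2, and for lower Gag-derived genes from 0 to 1 without UVB replicate 3. With a replicate block, 7280 genes changed in place of 7786 and PEG10 was at 2.26. Deviations of same-numbered libraries from their group means correlated at 0.0072, −0.078 and −0.031, so no shared replicate effect was seen. With 3 libraries a group, this cannot tell whether same-numbered libraries were prepared as pairs. Depth limits IGF2, PEG3, CDKN1C and H19, which had at most 36 counts in a library.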
